A study of Mus musculus with 12 samples.

Results

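Interferon-stimulated and nucleic acid sensing genes were followed in cardiomyocytes isolated from mouse hearts. The list named 37 genes by symbol, of which 35 had a row among the 22584 genes of the deposited count table. Mx1 and Mx2 were not analysed here. All 35 passed the filter on low counts, which kept 15004 genes. The genes were grouped by known role into 7 nucleic acid sensors (Ifih1, Dhx58, Zbp1, Oas1a, Oas2, Oas3 and Eif2ak2), 2 OAS-like proteins (Oasl1 and Oasl2), 4 transcription factors (Irf1, Irf7, Irf9 and Stat2), 3 genes of the ISG15 system (Isg15, Usp18 and Trim25), 4 IFIT proteins (Ifit1, Ifit2, Ifit3 and Ifit3b), 9 other antiviral effectors (Rsad2, Cmpk2, Bst2, Parp14, Xaf1, Rtp4, Ifi27, Ifi35 and Ifi44), 3 guanylate-binding proteins (Gbp2, Gbp3 and Gbp7) and 3 genes of antigen processing (Psmb8, Psmb9 and Tap1).

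Polyadenylated RNA came from wild-type C57BL6 mice in 4 groups with 3 libraries each. The groups were a CKD model injected with JV001 (CKD JV001), the CKD model injected with saline (CKD saline), sham operation with JV001 (sham JV001) and sham operation with saline (sham saline). Mice of the CKD model received AngII and a high salt diet and underwent uninephrectomy, the removal of 1 kidney. A duration of 12 weeks was given for every group except CKD saline. The agent JV001 has only its code name here, and the title of the series concerns telomere recapping by gene therapy in cardio-renal syndrome. The labels do not state that the 3 libraries of a group are from different animals. A p-value here therefore reflects spread among libraries, and that spread could be technical.

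Depth per library lay between 25.2 and 37 (total counts, in units of 1e6). Ventricular cardiomyocyte markers summed to at least 26134 CPM (counts per 1e6 counts, TMM-scaled) in every library. CKD JV001 library 3 and CKD saline library 3 stood apart from the other libraries of their groups. Ventricular marker sums were lowest in these 2 libraries, at 26134 CPM in CKD JV001 library 3 and 52152 CPM in CKD saline library 3. The median and most named fold changes of CKD JV001 against CKD saline are given with and without CKD JV001 library 3. Sham saline library 1 also differed from libraries 2 and 3 of its group (chi-square per degree of freedom 256 and 226, against 28.3 between libraries 2 and 3).

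Type I interferons bind a surface receptor whose kinases activate a complex that holds STAT2 and IRF9. This complex binds the interferon-stimulated response element (ISRE) in target promoters, whereas interferon gamma acts at gamma-activated sites (GAS). RIG-I-like receptors sense RNA in the cytosol and cGAS senses DNA, and both pathways lead to interferon production. Many sensors are themselves interferon-induced, so sensors, factors and antiviral effectors commonly rise together. Cardiomyocytes, endothelial cells, fibroblasts and leukocytes of the heart can all carry this response.

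Promoter windows were searched for both elements. The list was chosen as interferon-stimulated genes, so a raised share of these elements can follow from that choice, whatever the levels in these libraries. RefSeq promoter windows (build GRCm38.p6, 250 bases before to 50 bases after the gene start) were matched for 28 of the 35 genes. The ISRE was searched on both strands as GAAA, any 2 bases and GAAA again, where matches may overlap, and was present in 14 of the 28 genes, against 3.99% of 27025 genes with a window. A longer form, with a C after the last A, was present in 12 of 28 (42.9%), against 0.944% of all genes. The GAS was searched as TTCNNNGAA, which reads the same on both strands, and was present in 8 of 28 (28.6%), against 9.55% of all genes. In Bst2 the GAS match overlapped an ISRE match. A match describes the letters in the window, not binding.

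Promoter stretches of Isg15, Ifit1, Ifit3, Ifit3b, Oas1a, Rsad2 and Gbp2 are printed for their ISRE matches, and that of Irf1 for its GAS match. Each is printed 5′ to 3′ along the gene's own strand, with the motif match in capitals. Matches that read TTTC lie on the opposite strand. The Isg15 stretch lies at chr4:156200860-156200911 on the minus strand, between 93 and 42 bases before the start, and holds 3 overlapping matches. That of Ifit1 lies at chr19:34640770-34640828 on the plus strand and holds 2 separate matches. The Ifit3 stretch lies at chr19:34583358-34583431 and that of Ifit3b at chr19:34607754-34607827, both on the plus strand, and their 74 bases have 0 differences. Oas1a lies at chr5:120907526-120907560 and Rsad2 at chr12:26456548-26456587, both on the minus strand. Gbp2 lies at chr3:142620589-142620628 and Irf1 at chr11:53769909-53769947, both on the plus strand.
Isg15: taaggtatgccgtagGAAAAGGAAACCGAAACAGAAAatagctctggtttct
Ifit1: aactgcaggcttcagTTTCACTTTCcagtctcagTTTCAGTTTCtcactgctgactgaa
Ifit3: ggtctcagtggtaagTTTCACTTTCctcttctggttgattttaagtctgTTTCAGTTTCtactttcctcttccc
Ifit3b: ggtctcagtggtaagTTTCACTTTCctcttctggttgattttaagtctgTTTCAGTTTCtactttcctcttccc
Oas1a: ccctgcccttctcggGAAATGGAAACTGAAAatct
Rsad2: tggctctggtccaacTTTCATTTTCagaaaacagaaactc
Gbp2: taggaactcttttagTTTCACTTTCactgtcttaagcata
Irf1: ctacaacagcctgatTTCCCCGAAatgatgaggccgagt

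**Figure D1:**
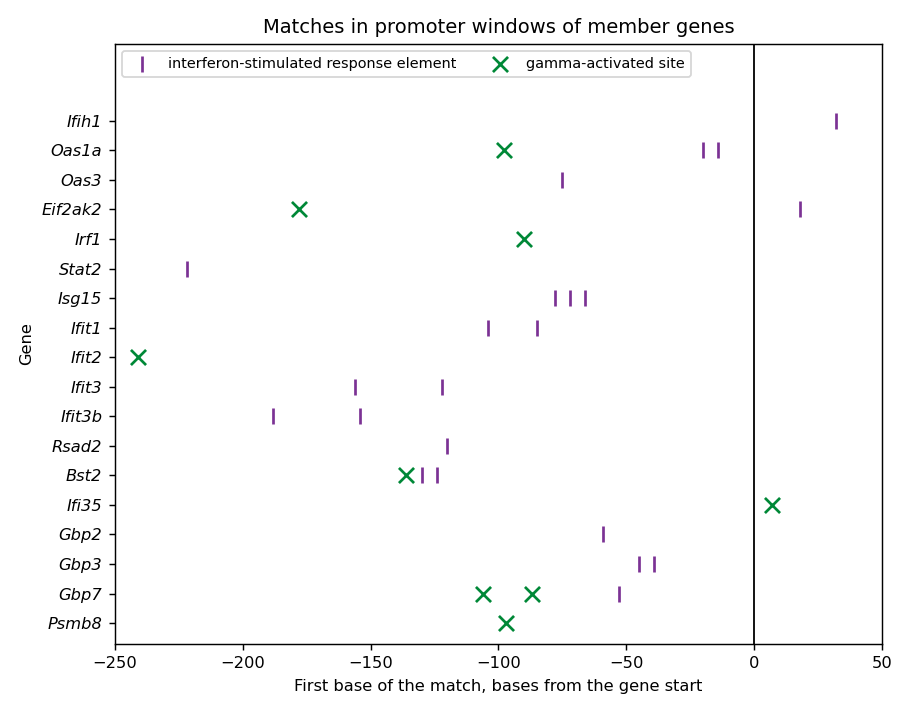
Positions of ISRE matches (purple bars) and GAS matches (green crosses) in promoter windows of member genes, as bases from the gene start (x axis), one gene per row for genes with a match. Isg15 holds 3 ISRE matches, and the 14 genes with an ISRE stand beside genes with a GAS only, such as Irf1, Ifit2, Ifi35 and Psmb8.

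All 35 genes had their highest level of the 12 libraries in CKD JV001 library 3, which held the highest level of 27.9% of all tested genes. The member genes' summed CPM was 700, 716 and 4856 in CKD JV001 libraries 1, 2 and 3, against 290, 301 and 749 in CKD saline, 665, 485 and 280 in sham JV001, and 412, 253 and 226 in sham saline. Within CKD JV001, library 3 stood above the mean of libraries 1 and 2 by a median of 2.63 on the log2 CPM scale over the 35 genes, with a range of 0.037 for Ifi27 to 4.82 for Oasl1, against a median of -0.10 over all tested genes. In CKD saline, library 3 was above libraries 1 and 2 in 35 of 35 genes, by a median of 1.33 over their mean. In the sham groups library 3 lay below the mean of libraries 1 and 2, in 35 of 35 genes in sham JV001 (median -1.09) and in 34 of 35 in sham saline (median -0.51), with Eif2ak2 the exception. Library 3 was below each of the other 2 libraries in 35 genes in sham JV001 and in 21 in sham saline.

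CKD JV001 had the highest group mean in 35 of 35 genes. Sham saline had the lowest mean in 34 genes and sham JV001 in 1. Second place went to sham JV001 in 25 genes and to CKD saline in 10. Ranges of neighbouring groups overlapped for most genes: CKD JV001 lay above all 9 other libraries in 10 of 35 (Dhx58, Usp18, Ifit3, Rtp4, Ifi27, Ifi35, Gbp2, Psmb8, Psmb9 and Tap1), against 4.47% of all tested genes. Per gene length, the highest mean levels over 12 libraries were those of Bst2 (28.7 FPKM), the membrane protein tetherin, Gbp2 (22.8 FPKM) and Ifi27 (20.8 FPKM). The lowest was Oas3 at 0.30 FPKM.

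**Figure D2:**
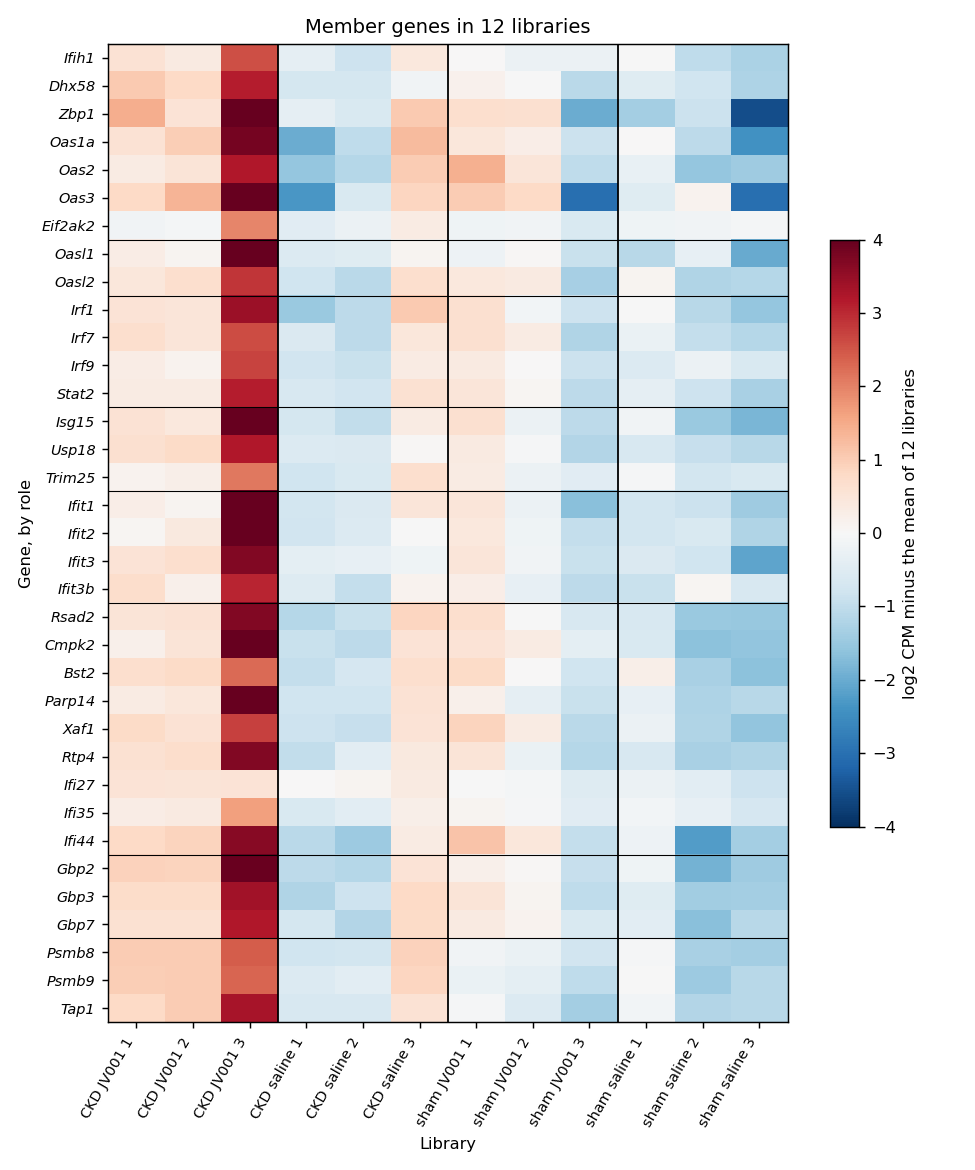
Level of each of the 35 genes (rows, grouped by role) in each library (columns), as log2 CPM minus the gene's mean over 12 libraries, with colours saturating at 4 in both directions. CKD JV001 library 3 is darkest red in nearly every row, CKD saline library 3 is redder than libraries 1 and 2 of its group, and Ifi27 varies least.

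The first comparison asked how JV001 differed from saline within the CKD model. All 35 genes had a higher mean in CKD JV001 than in CKD saline, where 51.4% of all tested genes had a fold change above 0. The median log2 fold change was 2.30 over the 35 genes, against 0.022 over all tested genes. EdgeR's quasi-likelihood test with Benjamini-Hochberg adjustment called 0 of 35 (0% of all tested genes were called higher), with adjusted p between 0.276 and 0.291. At an unadjusted p under 0.05, 33 of 35 were higher and 0 lower, against 9.29% of all tested genes higher and 8.75% lower. In 16 of 35 the 3 CKD JV001 libraries lay above the 3 CKD saline libraries, against 8.22% of all tested genes. The DESeq2 Wald test called 4 genes (Dhx58, Usp18, Ifit3 and Rtp4, against 0.297% of all genes called higher). It gave no p-value for 8 (Oasl1, Isg15, Ifit1, Ifit2, Cmpk2, Parp14, Gbp2 and Gbp7), which therefore could not be called. Voom with quality weights called 30, against 25.2% of all tested genes.

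Same-numbered CKD libraries deviated together in this comparison (r = 0.296, 0.289 and 0.492 across genes, which are not independent replicates). Library 3 stood apart in both CKD groups, which moves libraries 1 and 2 of each group together relative to the group mean. These values therefore cannot show that the numbers pair the libraries, and no label states a pairing. With the replicate number as a block in an edgeR fit of the 6 CKD libraries alone, an alternative added after seeing the data, 27 of 35 genes were called higher, against 10.4% of all tested genes. Their adjusted p, over all 35 genes, lay between 0.0113 and 0.199, and the median log2 fold change was 1.92. The 8 genes not called were Eif2ak2, Oasl1, Isg15, Ifit1, Ifit2, Ifit3, Parp14 and Ifi27. The block fitted over all 12 libraries called 0 genes, with a median of 2.16.

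The size of these differences moved with library 3 of the 2 CKD groups. Without CKD JV001 library 3, the median log2 fold change was 0.75, with 34 of 35 genes above 0 (50.9% of all tested genes), and 2 genes had an unadjusted p under 0.05 (Dhx58 and Usp18, against 2.88% of all tested genes). Without CKD saline library 3, the median was 2.84 and edgeR called 25 genes (13.2% of all tested genes). Without both, the median was 1.35, 14 genes were called (9.77%), and libraries 1 and 2 of CKD JV001 lay above libraries 1 and 2 of CKD saline in 35 of 35 genes, against 38.2% of all tested genes. The count at an unadjusted p under 0.05 was 20 when CKD saline library 1 was left out and 19 when library 2 of that group was, against 2.97% of all tested genes in both cases.

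**Figure D3:**
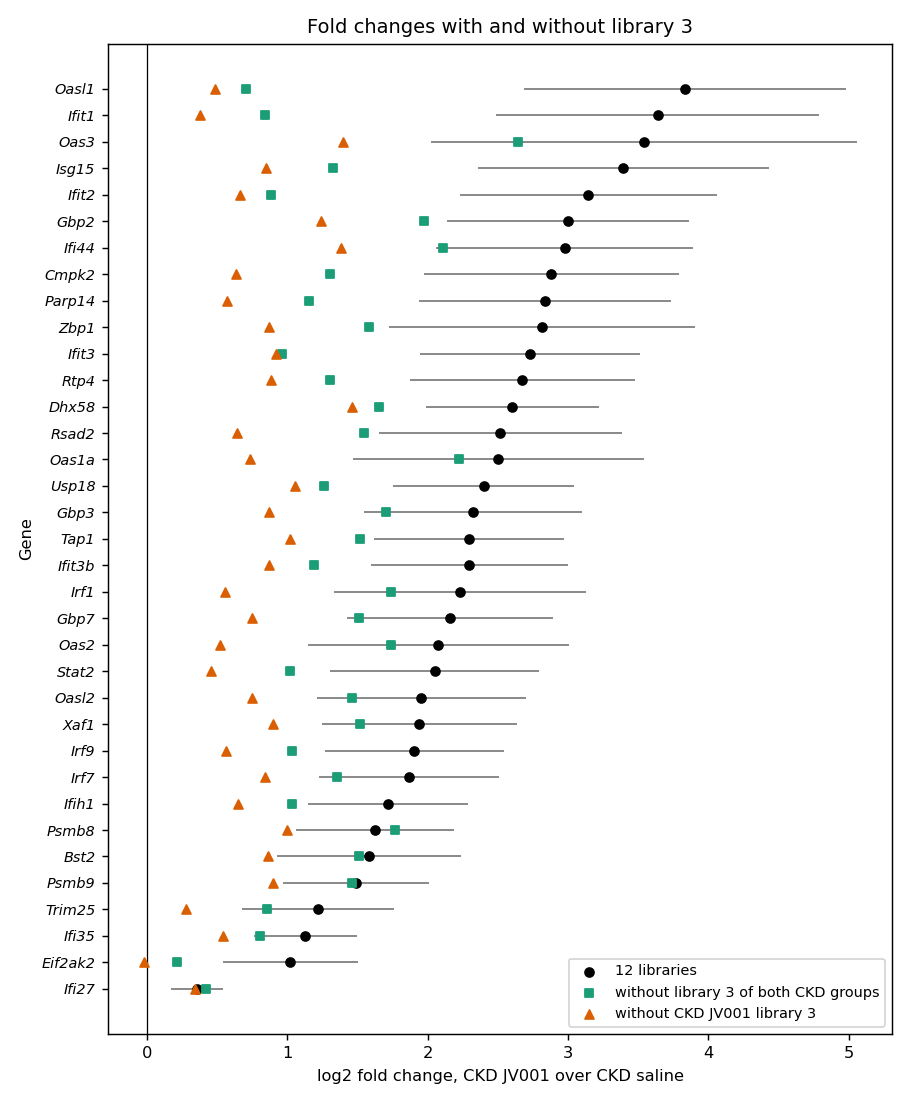
Log2 fold change of CKD JV001 over CKD saline for each gene, with all 12 libraries (black, bars are 1 SE), without library 3 of both CKD groups (green squares) and without CKD JV001 library 3 (orange triangles). Values run from 0.35 for Ifi27 to 3.83 for Oasl1 with all libraries, and nearly every triangle lies to the left of the black point.

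Among the sensors, Dhx58 (LGP2, a regulator of the RIG-I-like receptors) had 4.12, 3.50 and 17.7 CPM in CKD JV001 libraries 1, 2 and 3, against 1.18, 1.19 and 1.79 CPM in CKD saline. It had 2.23, 1.93 and 0.909 CPM in sham JV001, against 1.38, 1.11 and 0.803 CPM in sham saline. Every CKD JV001 library thus lay above the other 9, and the log2 fold change over CKD saline was 2.60 (SE 0.62, edgeR adjusted p 0.276), or 1.46 without CKD JV001 library 3. Oas2, which makes the oligoadenylates that activate RNase L, had 24.5, 27.8 and 179 CPM in CKD JV001, against 6.63, 8.74 and 39.5 CPM in CKD saline. Its level was 52.7, 27.5 and 9.69 CPM in sham JV001, against 15.7, 6.63 and 7.20 CPM in sham saline. The Oas2 ranges overlapped in each of these pairs, and the log2 fold change in the CKD model was 2.08 (SE 0.93), or 0.52 without CKD JV001 library 3. Log2 fold changes of the 7 sensors ran from 1.02 for Eif2ak2, the RNA-activated kinase PKR, to 3.54 for Oas3, which had few reads. Without CKD JV001 library 3, Eif2ak2 had -0.024, the 1 member below 0, and Oas3 had 1.39 (SE 1.51). Reads of Oas1a, Oas2 and Oas3 are uncertain, since how the counting treated reads shared with related copies is not known.

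The OAS-like Oasl1, which in mice restrains translation of Irf7, had 3.45, 3.02 and 92.6 CPM in CKD JV001, against 1.92, 1.98 and 3.06 CPM in CKD saline. Its log2 fold change of 3.83 (SE 1.15) was the highest of the 35 genes and was 0.48 without CKD JV001 library 3. Oasl2 had 18.2, 21.2 and 97.1 CPM in CKD JV001, against 7.74, 6.30 and 21.2 CPM in CKD saline, with a log2 fold change of 1.95 (SE 0.75), or 0.75 without that library. One library thus carries most of the Oasl1 difference, and for Oasl2 the 2 groups overlap. How the counting treated reads shared by the 2 related genes is not known.

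The factors Irf1, Irf7, Irf9 and Stat2 had log2 fold changes between 1.87 and 2.23. Irf1, a factor strongly induced by interferon gamma, had 46.8, 44.9 and 347 CPM in CKD JV001, against 11.5, 15.5 and 66.6 CPM in CKD saline (log2 fold change 2.23, SE 0.90). Irf9, which gives the complex with STAT2 its DNA binding, had 22.4, 20.0002 and 119 CPM in CKD JV001, against 10.6, 9.80 and 22.7 CPM in CKD saline (log2 fold change 1.91, SE 0.64). For both factors CKD saline library 3 reached or exceeded CKD JV001 libraries 1 and 2, so the groups overlapped. The log2 fold changes of Irf1 and Irf9 were both 0.56 without CKD JV001 library 3.

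Of the ISG15 system, Usp18, which removes ISG15 from proteins and dampens the interferon receptor, had 8.14, 8.81 and 47.7 CPM in CKD JV001, against 3.48, 3.46 and 5.32 CPM in CKD saline. Its groups did not overlap, and its log2 fold change was 2.40 (SE 0.65), or 1.05 without CKD JV001 library 3. Isg15, the ubiquitin-like modifier itself, had 6.52, 5.92 and 96.7 CPM in CKD JV001, against 2.67, 2.21 and 5.52 CPM in CKD saline (log2 fold change 3.40, SE 1.04). Trim25, a ubiquitin ligase that acts on RIG-I, had a smaller log2 fold change of 1.22 (SE 0.54), with 40.2, 42.3 and 155 CPM in CKD JV001, against 21.0, 23.8 and 57.6 CPM in CKD saline. Leaving out CKD JV001 library 3 gave 0.85 for Isg15 and 0.27 for Trim25.

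Some IFIT proteins bind foreign RNA. Ifit3 had 17.6, 19.2 and 156 CPM in CKD JV001, against 9.0, 9.5 and 10.6 CPM in CKD saline, without overlap (log2 fold change 2.73, SE 0.79). Ifit2 had 19.4, 23.7 and 319 CPM in CKD JV001, against 10.6, 12.4 and 18.0 CPM in CKD saline, also without overlap (log2 fold change 3.15, SE 0.92). For both genes CKD JV001 library 3 stood far above libraries 1 and 2 of its group. Reads of Ifit3 and its near copy Ifit3b are uncertain, since how the counting treated reads shared by both is not known. Without CKD JV001 library 3, the log2 fold change was 0.92 for Ifit3 and 0.66 for Ifit2.

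Among other effectors, Rtp4 had 9.44, 10.1 and 81.7 CPM in CKD JV001, against 3.11, 4.65 and 8.10 CPM in CKD saline (log2 fold change 2.67, SE 0.80). Parp14, a mono-ADP-ribosyltransferase, had 55.0, 59.8 and 715 CPM in CKD JV001, against 25.4, 25.2 and 65.7 CPM in CKD saline (log2 fold change 2.83, SE 0.90). The groups were apart for Rtp4 and overlapped for Parp14. With CKD JV001 library 3 left out, Rtp4 had 0.89 and Parp14 0.57. Ifi27 departed from the rest, with 37.9, 37.1 and 38.4 CPM in CKD JV001, against 26.6, 28.4 and 33.7 CPM in CKD saline. It had 25.7, 24.6 and 18.4 CPM in sham JV001, against 22.3, 19.7 and 14.7 CPM in sham saline. CKD JV001 library 3 lay close to libraries 1 and 2 for Ifi27, and the gene's log2 fold change of 0.35 (SE 0.19, edgeR adjusted p 0.291) was the smallest of the 35 (0.34 without that library).

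**Figure D4:**
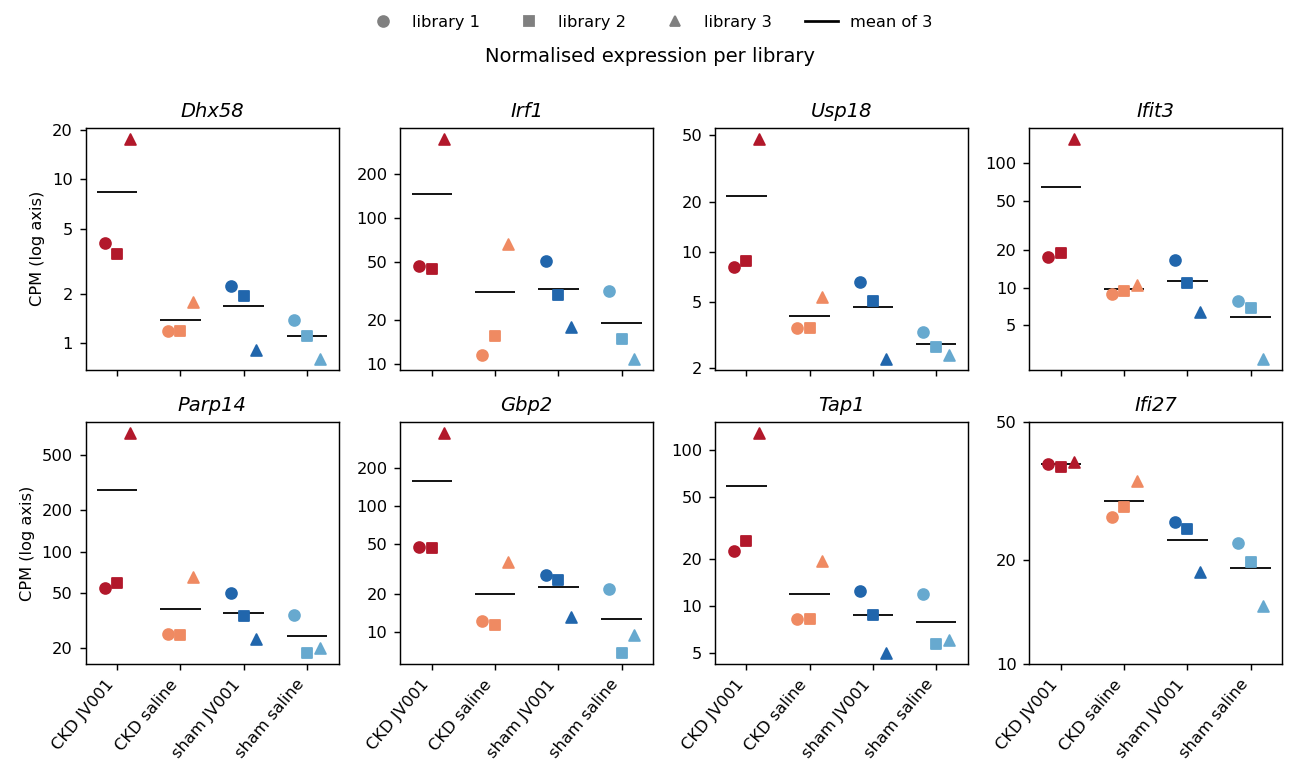
CPM of 8 genes per library on a log axis, with the 4 groups along the x axis, circles, squares and triangles for libraries 1, 2 and 3, and lines for the mean of 3. CKD JV001 library 3 stands far above the rest in 7 panels and not for Ifi27, whose 3 CKD JV001 libraries lie between 37.1 and 38.4 CPM.

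Gbp2, an interferon-induced GTPase of host defence, had 47.6, 46.3 and 383 CPM in CKD JV001, against 12.1, 11.3 and 36.1 CPM in CKD saline. Its groups did not overlap, the log2 fold change was 3.00 (SE 0.86), and it was 1.24 without CKD JV001 library 3. Gbp3 and Gbp7 had 2.32 and 2.16, or 0.87 and 0.74 without that library, and the treatment of reads shared within this family is not known. Tap1, which carries peptides into the endoplasmic reticulum for display, had 22.5, 26.2 and 129 CPM in CKD JV001, against 8.33, 8.31 and 19.5 CPM in CKD saline (log2 fold change 2.30, SE 0.68). Psmb8 and Psmb9, subunits of the immunoproteasome, had log2 fold changes of 1.63 and 1.49, and in all 3 of these genes the groups did not overlap. The values without CKD JV001 library 3 were 1.02 for Tap1, 0.99 for Psmb8 and 0.90 for Psmb9.

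The comparison of CKD saline with sham saline addresses the CKD model itself. All 35 genes had a log2 fold change above 0 (51.4% of all tested genes), with a median of 0.65, and edgeR called 0 of them (0% of all tested genes called higher, adjusted p between 0.938 and 0.998). At an unadjusted p under 0.05 there was 1 gene, Ifi27, against 2.15% of all tested genes, which is near the background, and DESeq2 and voom called 0 after adjustment. Ifi27 had a log2 fold change of 0.65 (SE 0.19, edgeR adjusted p 0.938). In 5 of 35 the groups did not overlap (Zbp1, Usp18, Ifit1, Ifit3 and Ifi27), against 4.12% of all tested genes. Zbp1, a sensor of Z-form nucleic acid, had 0.962, 0.792 and 2.66 CPM in CKD saline, against 0.450, 0.663 and 0.0518 CPM in sham saline. These are few reads, with 26, 24 and 67 in CKD saline and 14, 25 and 2 in sham saline. The median was 0.078 and 21 of 35 genes were above 0 (49.0% of all tested genes) without CKD saline library 3, while the median was 1.02 without sham saline library 1. Without that sham library, 21 genes did not overlap (15.2% of all tested genes) and 3 had an unadjusted p under 0.05 (6.91%).

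For JV001 in sham mice, 34 of 35 genes had a log2 fold change above 0 over sham saline (49.2% of all tested genes), with a median of 0.76, and Eif2ak2 had -0.15. EdgeR called 0 (0% of all tested genes called higher, adjusted p of 0.9997 for every member), and DESeq2 and voom called 0. At an unadjusted p under 0.05 edgeR had 0 members, against 1.61% of all tested genes. Cmpk2, a mitochondrial nucleotide kinase, was the 1 gene without overlap (5.69% of all tested genes), with 13.9, 11.8 and 7.18 CPM in sham JV001, against 6.11, 3.00 and 3.11 CPM in sham saline. Without sham JV001 library 3, 24 genes did not overlap (12.6% of all tested genes), and without sham saline library 1, 18 (21.1%). The count at an unadjusted p under 0.05 was 18 by voom (12.3%) and 14 by edgeR without library 3 of both CKD groups (5.73%), which enter the shared estimate of spread. The median was 0.41 without sham JV001 library 1 and 1.12 without sham saline library 1. This comparison shares the sham saline libraries with the one before it.

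Between CKD JV001 and sham JV001, 35 of 35 genes were higher in CKD JV001 (51.1% of all tested genes above 0), with a median log2 fold change of 2.18. EdgeR called 0 of 35 (0% of all tested genes called higher), with adjusted p between 0.0935 for Psmb9 and 0.323 for Oas2, while DESeq2 called 16, against 7.47% of all genes. DESeq2 gave a p-value for 14839 genes, as many as in the comparison with CKD saline, where 8 members had none. Voom called 10 (16.8% of all tested genes), and edgeR without library 3 of both CKD groups called 4 (3.77%). Unadjusted p was under 0.05 for 31 genes, against 14.8%, and 18 did not overlap, against 22.9%. Psmb9 had 11.9, 12.3 and 30.5 CPM in CKD JV001, against 4.98, 4.57 and 2.97 CPM in sham JV001 (log2 fold change 2.13, SE 0.53). Tap1 had a log2 fold change of 2.75 (SE 0.69, edgeR adjusted p 0.0937) and Ifi27 one of 0.72 (SE 0.19, edgeR adjusted p 0.0937). Without CKD JV001 library 3 the log2 fold change was 1.53 for Psmb9, 1.47 for Tap1 and 0.71 for Ifi27, the median was 0.59 and 6 genes had an unadjusted p under 0.05 (8.16% of all tested genes), and without sham JV001 library 3 that count was 16 (7.80%). Without sham JV001 library 1, 32 genes did not overlap (26.8%). The CKD JV001 libraries are the same as in the comparison with CKD saline.

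Whether JV001 differed in its effect between CKD and sham was tested as an interaction in edgeR. All 35 genes had an interaction above 0 (49.9% of all tested genes), with a median of 1.45, and 0 passed (0% of all tested genes called higher, adjusted p between 0.840 and 0.944, and 0 by DESeq2 and voom). Dhx58, Ifit3b and Tap1 had an unadjusted p under 0.05, against 2.09% of all tested genes. Dhx58 had an interaction of 1.98 (SE 0.85, edgeR adjusted p 0.840). Without CKD JV001 library 3 the median was -0.018 and 16 of 35 genes were above 0, against 49.0% of all tested genes, and Dhx58 had 0.84. The count at an unadjusted p under 0.05 was 14 without CKD JV001 library 1 (2.87% of all tested genes), 13 without CKD JV001 library 2 (2.61%) and 9 without CKD saline library 3 (11.0%). It was 3 without sham JV001 library 1, 2 with the third sham saline library left out, 1 with either other library of that group left out, and 0 without any 1 of the remaining libraries. These last counts are given without the share over all tested genes, so they are not read as a result.

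Other genes of the interferon and sensing pathways were followed from a list of 45 symbols, with 2 genes written under an older and a newer name, of which 34 had a row and 32 were tested. In CKD JV001 against CKD saline, 29 of 32 had a log2 fold change above 0 (median 1.12, against 0.022 over all tested genes), edgeR called 0 after adjustment in either direction, and at an unadjusted p under 0.05, 18 were higher (9.29% of all tested genes) and 1 lower. The lower one was Ifngr2, a chain of the interferon gamma receptor, at -0.66 (SE 0.26). Receptors and kinases had a median of 0.61, sensors and adaptors 1.47, and factors and brakes 1.00. Socs3, a brake on cytokine receptors, had 107, 102 and 303 CPM in CKD JV001, against 34.8, 36.4 and 49.8 CPM in CKD saline (log2 fold change 2.08, SE 0.56). Cgas, the DNA sensor, had 0.950, 1.09 and 6.90 CPM in CKD JV001, against 0.333, 0.165 and 0.715 CPM in CKD saline (log2 fold change 2.88, SE 0.91). The CKD groups did not overlap for either gene, but sham JV001 overlapped CKD JV001 for both. In sham JV001, Socs3 had 174, 115 and 49.8 CPM, and Cgas had 1.45, 1.09 and 0.273 CPM. Ifi204, a mouse protein of the IFI16 family that binds DNA, had 11.2, 9.18 and 84.9 CPM in CKD JV001, against 3.37, 2.11 and 9.06 CPM in CKD saline, without overlap (log2 fold change 2.86, SE 0.89). Ddx58, which encodes RIG-I, had 24.8, 22.8 and 127 CPM in CKD JV001, against 9.92, 8.44 and 25.8 CPM in CKD saline, with overlap (log2 fold change 1.99, SE 0.67). Without CKD JV001 library 3, an alternative added after seeing the data, 26 of the 32 were above 0 with a median of 0.41, and 1, Socs3, had an unadjusted p under 0.05 (2.88% of all tested genes). The log2 fold change was then 1.37 for Socs3, 1.34 for Cgas, 1.08 for Ifi204, 0.69 for Ddx58 and -0.49 for Ifngr2. Against sham JV001, also without CKD JV001 library 3, it was -0.11 for Socs3, 0.12 for Cgas, 0.84 for Ifi204, 0.61 for Ddx58 and -0.28 for Ifngr2.

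Of 10 interferon ligand symbols in the list, only Ifnb1 and Ifng had a row, both with few reads, and the other 8 were not analysed here. Ifnb1, which encodes interferon beta, had 5, 1 and 0 reads in CKD JV001 and 0, 1 and 0 in CKD saline, against 20, 17 and 0 in sham JV001 and 8, 0 and 0 in sham saline. Ifng had 1 read in CKD JV001 library 2 and 0 in every other library, where a count of 0 allows up to 3 reads. CKD JV001 library 3, the highest library for all 35 genes, thus had 0 reads of both. Levels at the limit of this depth show no order between groups.

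Markers of several other cell types also differed between libraries. Summed levels of 9 neutrophil markers were 15.2, 15.1 and 318 CPM in CKD JV001, against 3.74, 4.82 and 71.4 CPM in CKD saline, 0.697 to 5.58 CPM in sham JV001 and 0.570 to 2.22 CPM in sham saline. Ly6g, a defining neutrophil gene, had 78 reads in CKD JV001 library 3, 9 in CKD saline library 3 and 0 in the other 10 libraries. The 2 libraries with the most neutrophil marker reads were thus library 3 of both CKD groups. Of the 9 markers, 7 were at 0 in at least 1 library. Macrophage and monocyte markers summed to 507 to 925 CPM in CKD JV001, against 99.3 to 497 CPM in CKD saline, 78.3 to 253 CPM in sham JV001 and 38.4 to 184 CPM in sham saline. Endothelial markers summed to 1930 to 2204 CPM in CKD JV001, against 697 to 2430 CPM in CKD saline, and fibroblast markers to 1051 to 1415 CPM, against 234 to 893 CPM. Smooth muscle and pericyte markers summed to 700, 675 and 1812 CPM in CKD JV001, against 285, 298 and 953 CPM in CKD saline. Erythroid markers summed to 144, 135 and 333 CPM in CKD JV001, against 47.6, 52.9 and 664 CPM in CKD saline. The highest library of the erythroid, endothelial and B cell sums was CKD saline library 3 (664, 2430 and 7.98 CPM), unlike that of the member genes. Neutrophil, macrophage and monocyte, fibroblast, and smooth muscle and pericyte sums were highest in CKD JV001 library 3.

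Ventricular cardiomyocyte markers went the other way, with 26134 to 57834 CPM in CKD JV001, against 52152 to 93875 CPM in CKD saline, 83723 to 90527 CPM in sham JV001 and 76876 to 104653 CPM in sham saline. T and NK cell markers summed to at most 4.58 CPM and B cell markers to at most 7.98 CPM. The part of other cells in the members' levels was not tested. In bulk RNA, fewer cells of a type and less RNA per cell cannot be told apart. Promoter content was set beside the levels: genes with an ISRE match had a median log2 fold change of 2.41 between CKD JV001 and CKD saline (14 genes), against 1.95 in the 14 without a match in the window, given as a description. For the GAS the medians were 1.89 in the 8 genes with a match and 2.31 in the 20 without.

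**Figure D5:**
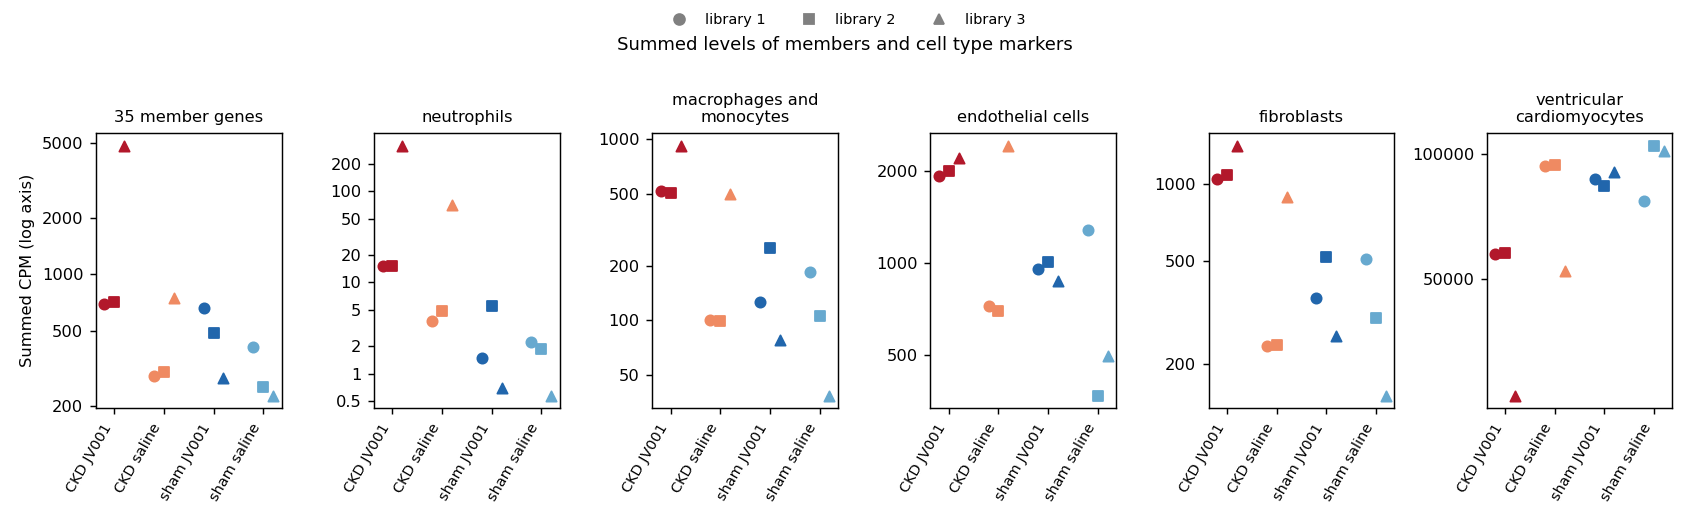
Summed CPM on log axes in each library for the 35 genes and for marker lists of 5 cell types, with groups along the x axis and symbols for library number. The summed level of the 35 genes and of neutrophil markers is highest in CKD JV001 library 3 (4856 and 318 CPM), where the ventricular marker sum is lowest (26134 CPM). Macrophage and fibroblast marker sums are also highest in that library, and the endothelial sum is highest in CKD saline library 3.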

How the data were processed

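The counts deposited by the authors are raw, whole-number read counts for each gene symbol. The authors' FPKM followed from these counts: FPKM and count per length and library total differed by less than 1% in 100% of 10249 genes. FPKM served only to compare levels between genes. The submitters' processing notes name fastp, HISAT2, HTSeq and GRCm39. Tool versions, annotation and strandedness were not given in the sources used here, and a gene's reads cannot be told from those of an overlapping or antisense gene. Table columns carry group initials and a number, and the initial C was taken as CKD saline.

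One edgeR 4.0.16 fit (R 4.3.3; TMM; filterByExpr, minimum count 10; quasi-likelihood F test) of the 4 group means over 12 libraries gave the contrasts, with Benjamini-Hochberg adjustment over 15004 genes at 0.05. CPM are counts per 1e6 with TMM factors, and log2 CPM used a prior count of 2. Alternatives were DESeq2 1.42.0, limma 3.58.1 voom with quality weights, RLE scaling, no filter, a replicate block and libraries left out. The fit was also run on simulated counts with the same dispersion for every gene and no outlying library. That run does not bear on the outlying libraries here. Members and lists were chosen with earlier results of these data known. Named genes were, for each role, the gene with the highest mean CPM and the one with the smallest p in CKD JV001 against CKD saline. Isg15, Ifi27, Psmb9, Zbp1 and Cmpk2 were named after their values were seen, as were Ifngr2, Ifnb1 and Ly6g. Fold changes of Psmb8, Gbp3 and Gbp7 were also given outside the rule for named genes. Of the other pathway genes, the 4 with the smallest p were named.

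Same-numbered libraries were checked for shared deviations from group means. Correlations across genes were 0.296, 0.289 and 0.492 in CKD JV001 against CKD saline. In the other comparisons they lay between -0.385 and 0.216. The pairing rests on the data, not on the labels. No 2 libraries of a group agreed within sampling noise (chi-square per degree of freedom at least 8.31).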

Additional observations from a re-analysis of the deposited data

How the results depend on the processing

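Called members and median log2 fold changes kept their side and size under RLE scaling and without a filter in every comparison. In CKD JV001 against CKD saline, called members were 0 with all libraries, 4 by DESeq2, 30 by voom with quality weights (25.2% of all tested genes), 14 without library 3 of both CKD groups, and 0 to 25 with single libraries left out, where the median ran from 0.75 to 2.84. The replicate block called 0 members over 12 libraries and 27 within the 6 CKD libraries (10.4% of all tested genes). The fit of the 6 libraries was added after seeing the data, and no label states a pairing. The block changed no other count of calls. In CKD JV001 against sham JV001, called members were 16 by DESeq2, 10 by voom (16.8% of all tested genes, median 0.73), 4 without library 3 of both CKD groups (3.77%, median 0.59) and 0 with any single library left out (median 0.59 to 2.62). The interaction median was 0.42 by voom, and it ran from -0.018, without CKD JV001 library 3, to 2.07 with single libraries left out. Leaving out single libraries gave medians of 0.078 to 1.02 in CKD saline against sham saline and 0.41 to 1.12 in sham JV001 against sham saline, with 0 members called. An arm reduced to 2 libraries used the spread of all groups. The cause of these shifts was not tested. Depth limits Oas3 most, with 0 reads in sham JV001 library 3 and sham saline library 3. The longer ISRE form was present in 12 in place of 14 of 28 members.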
